A study of Drosophila melanogaster with 2 samples.

Results

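Gcm2 is a zinc-containing transcription factor that, with its paralog Gcm, directs glial and blood cell development in the fly embryo. Its genomic contacts were mapped by chromatin immunoprecipitation and sequencing (ChIP-seq) with an anti-GFP antibody. The chromatin came from whole Drosophila melanogaster embryos, males and females pooled, collected from 0 to 24 h, of a transgenic line that stably expresses Gcm2 with GFP at its C terminus. Both libraries, labelled biological replicates 2 and 3, belong to that 1 group, so the comparisons set kinds of region against each other within it. Every embryo carried the tagged protein, all cell types were mixed, and no untagged or mock library was analysed here. The regions described are the IDR peaks at divergent promoters. IDR peaks are the regions that the authors kept by the irreproducible discovery rate, a measure of how alike regions rank in both replicates. A peak was taken when its summit, the strongest point of the region, lay within 500 bp of transcription start sites (TSSs) of at least 2 protein-coding genes on opposite strands. This held for 408 of the 2177 IDR peaks (18.7%, 95% Wilson interval 17.2 to 20.4%). Of the remainder, 784 peaks (36.0%) had TSSs on 1 strand alone within 500 bp, here named one-strand promoter peaks, and 985 (45.2%) had no protein-coding TSS that near.

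A divergent promoter is a short stretch of DNA from which a pair of genes is read in opposite directions, each away from the other. The compact fly genome holds many, and they often serve genes that are active in most cells. Known promoter proteins of such genes include DREF, which binds the DNA replication-related element (DRE), the insulator protein BEAF-32, whose core site is part of that element, and M1BP, which binds the promoter element named motif 1. Gcm proteins bind an octamer of the form ATGCGGGT.

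The stretches between the paired TSSs show what lay under the summits, and 7 are printed here. The first 5 belong to the strongest of 163 eligible peaks, with TSSs at least 40 bp apart and at most 300 bases and no annotated exon between them. Atat/Shc and RpS25/CG4820 were added, after their values were seen, as strong peaks with a DRE. Each is the plus strand of dm6 (Release 6), 5′ to 3′, from the base after the minus-strand TSS to the base before the plus-strand TSS, with the minus-strand gene named first. Capitals mark DRE (TATCGATA), BEAF-32 core (CGATA, or TATCG on the other strand) and E-box (CAGCTG) matches anywhere in the stretch, and no motif 1 or Gcm octamer match lay in any of the 7.
Chro/Ssl1 (chr3L:22878985-22879088): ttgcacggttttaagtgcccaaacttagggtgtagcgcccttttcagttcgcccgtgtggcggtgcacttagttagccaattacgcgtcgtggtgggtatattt
CG8372/CG8360 (chr2L:8212903-8212958): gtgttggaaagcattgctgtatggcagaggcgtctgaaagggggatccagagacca
Tcs5/CHMP2B (chr3L:5139396-5139618): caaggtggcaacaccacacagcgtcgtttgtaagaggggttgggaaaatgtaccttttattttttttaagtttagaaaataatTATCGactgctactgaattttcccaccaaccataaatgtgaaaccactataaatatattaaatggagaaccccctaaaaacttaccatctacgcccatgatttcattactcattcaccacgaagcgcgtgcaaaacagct
Art3/mRpS10 (chr3R:15229409-15229664): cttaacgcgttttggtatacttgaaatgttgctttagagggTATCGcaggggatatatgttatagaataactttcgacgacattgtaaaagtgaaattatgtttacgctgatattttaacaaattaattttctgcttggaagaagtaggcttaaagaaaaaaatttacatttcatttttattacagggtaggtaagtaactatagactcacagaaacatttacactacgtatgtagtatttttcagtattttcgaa
RpS27/Nup37 (chr3R:25247515-25247657): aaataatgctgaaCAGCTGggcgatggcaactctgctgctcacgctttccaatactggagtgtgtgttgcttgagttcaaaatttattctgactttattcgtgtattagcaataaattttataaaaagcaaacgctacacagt
Atat/Shc (chr3L:9426759-9427009): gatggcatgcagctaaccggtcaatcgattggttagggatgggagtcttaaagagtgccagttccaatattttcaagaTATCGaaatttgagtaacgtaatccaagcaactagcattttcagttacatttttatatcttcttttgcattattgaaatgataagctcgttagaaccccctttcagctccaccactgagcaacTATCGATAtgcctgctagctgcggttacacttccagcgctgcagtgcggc
RpS25/CG4820 (chr3R:11216288-11216534): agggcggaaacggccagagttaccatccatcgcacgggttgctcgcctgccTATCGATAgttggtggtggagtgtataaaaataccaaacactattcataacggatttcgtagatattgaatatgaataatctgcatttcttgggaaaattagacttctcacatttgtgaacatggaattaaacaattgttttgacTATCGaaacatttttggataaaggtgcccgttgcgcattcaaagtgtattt

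In these stretches the summit lay at base 122 for Tcs5/CHMP2B, base 128 for Art3/mRpS10, base 4 for RpS27/Nup37, base 115 for Atat/Shc and base 59 for RpS25/CG4820, counted from the first base printed. The Art3/mRpS10 and Atat/Shc summits thus fell near the centre of their stretches, and the RpS27/Nup37 summit fell on the edge next to RpS27. For the remaining pair of stretches, which are the shortest, the summit lay outside the letters shown. It was 91 bp from the Chro TSS on the side of Chro, and 48 bp from the CG8360 TSS on the side of CG8360. The DRE of RpS25/CG4820 lay in the part nearer RpS25, at bases 52 to 59, and the summit fell on its last base. That of Atat/Shc lay toward Shc, at bases 202 to 209, farther from the summit.

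The signal value is the authors' own enrichment of a region against a control, on a scale that the sources used here do not state, and it is compared only within a list. The IDR list holds the 2177 regions of highest signal among 30000 pooled candidates, so the members were chosen by their signal and summit position, and both are descriptions here. Members ranged from 57.8 to 618 with a median of 84.4 and quartiles of 67.6 and 118. One-strand promoter peaks had a median of 83.7 and the other IDR peaks one of 80.2, so the 3 medians lay close together. The 100 strongest IDR peaks included 27 members and the 500 strongest 93.

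The strongest member had the TSSs of Chro, which encodes the chromatin and spindle protein Chromator, and Ssl1, which encodes a subunit of the transcription factor TFIIH. Its signal was 618 in the pooled list, 319 in replicate 2 and 294 in replicate 3, and it ranked 5 in the IDR list and in both replicates' own lists. CG8372/CG8360, a pair of uncharacterized genes, followed with 435 in the pooled list, 243 in replicate 2 and 192 in replicate 3. Tcs5/CHMP2B, with genes for tRNA threonyl-carbamoyl synthesis and an ESCRT-III protein of endosomal sorting, had 427, 214 and 218 in the same order. All 3 were well above the member medians, which were 43.5 in replicate 2 and 43.6 in replicate 3. They were picked by a pooled signal made from the same replicates, so nothing is read from this.

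**Figure D1:**
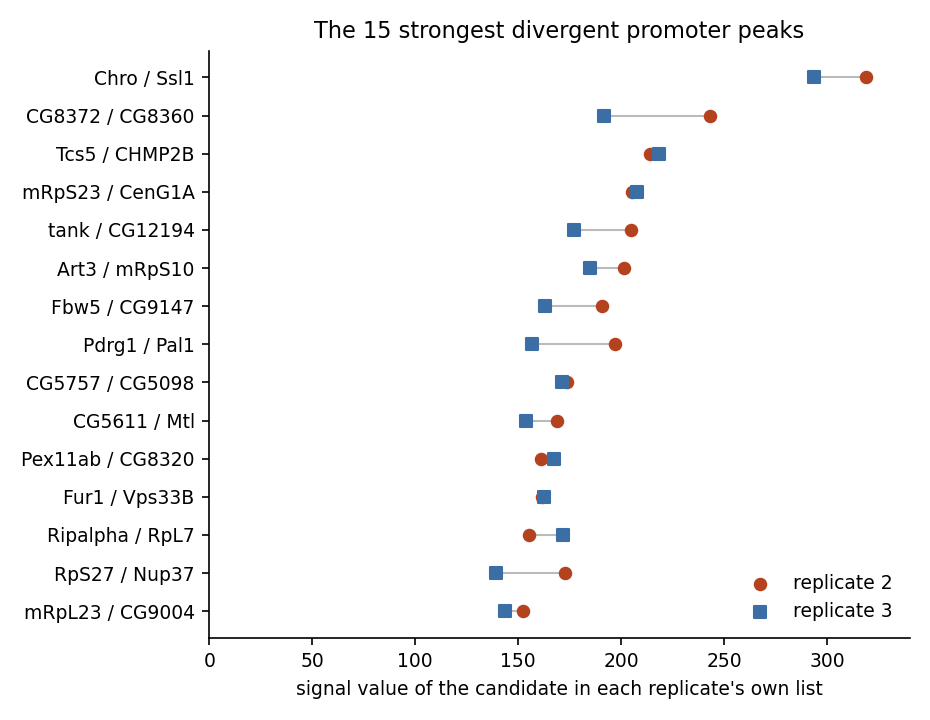
Signal of the 15 strongest divergent promoter peaks, 1 row per peak with the minus-strand gene named first, in replicate 2 (circles) and replicate 3 (squares). The horizontal axis is the authors' signal value in each replicate's own candidate list; Chro/Ssl1 lies to the right of the other 14 in both replicates, at 319 in replicate 2 and 294 in replicate 3.

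The next members included a pair of peaks at genes of the small subunit of the mitochondrial ribosome. mRpS23/CenG1A, the second of which encodes a centaurin-type protein, had signal 417 in the pooled list, 205 in replicate 2 and 208 in replicate 3. Art3/mRpS10, the first of which encodes an arginine methyltransferase, had 384, 201 and 185. The remaining members of the first 15 had pooled signal from 295 to 392 and lay at tank/CG12194, Fbw5/CG9147, Pdrg1/Pal1, CG5757/CG5098, CG5611/Mtl, Pex11ab/CG8320, Fur1/Vps33B, Ripalpha/RpL7, RpS27/Nup37 and mRpL23/CG9004. Their genes are known for diverse roles. Pex11ab encodes a peroxisomal protein, Fur1 the protease furin 1, Vps33B a vacuolar sorting protein and Nup37 a nuclear pore protein. At the low end, the weaker summit of CG9008/p38b had 57.8 in the pooled list, 32.5 in replicate 2 and 8.68 in replicate 3. Sgf29/RpL29 had 57.9, 39.3 and 12.2. Both were thus lower in replicate 3 than in replicate 2.

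Just below the signal at which the IDR list ends, the strongest pooled candidates at divergent promoters were DAAM/fs(1)N, slmb/CG5793 and EloB/Srp14, each with a signal of 57.6, against 57.8 for the weakest member. Among all pooled candidates at divergent promoters, 408 of 1913 (21.3%) were in the IDR list, against 7.26% of all 30000 pooled candidates. The rule used that threshold, so nothing is read from the contrast. At the distance limit, crp/pkaap was taken with its farther TSS 499 bp from the summit, and Apc/spg was not, at 503 bp. The farther TSS was over 450 bp away in 12 members.

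In their own lists, both replicates had a candidate with its summit within 100 bp of the member's summit at 380 of 408 members (93.1%, 90.3 to 95.2%). The share was 93.1% at one-strand promoter peaks and 94.9% at the other IDR peaks, both within the interval of the members. Replicate 2 had such a candidate at 390 members and replicate 3 at 398. When each replicate was limited to its own 2177 strongest regions, 257 members (63.0%) were met in both, against 64.7% of one-strand promoter peaks and 63.6% of the other peaks. The replicate summits of a member lay a median of 23 bp apart, against 24 bp at one-strand promoter peaks. Over the 380 members with both values, Spearman's rho of the signals was 0.61, a description of regions from the same pair of libraries, and the signal was higher in replicate 2 at 203.

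**Figure D2:**
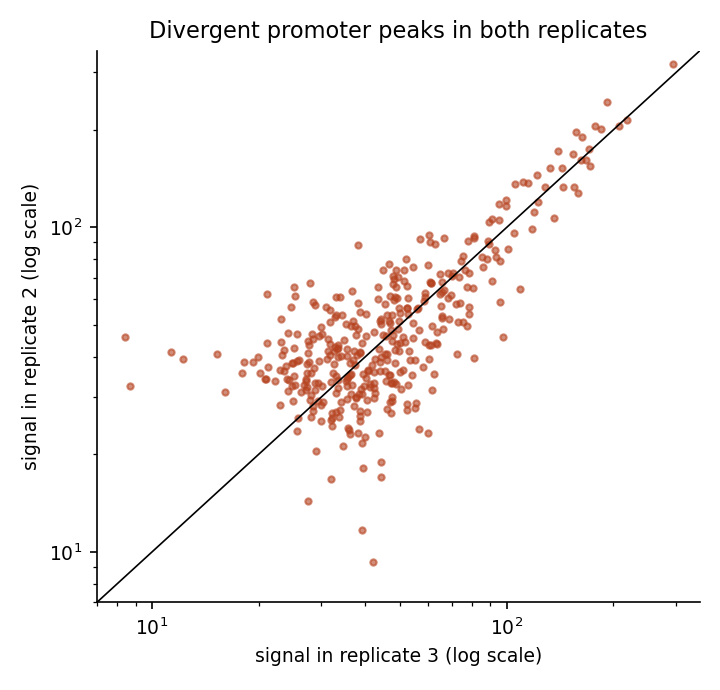
Signal of 380 divergent promoter peaks in replicate 3 (horizontal) and replicate 2 (vertical), both on log scales, with the line of equal values. The strongest peaks lie along the line and the weaker ones spread around it, with a few under 10 in 1 replicate.

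The 28 members without a candidate in 1 of the replicates had a median signal of 70.0, against 84.4 for all members. The strongest was CG10747/Pyroxd1, with signal 188 in the pooled list and 97.8 in replicate 3 but no candidate in replicate 2 within 100 bp. TppII/ND-MWFE had 120 in the pooled list and 54.3 in replicate 3, Pih1D1/MRP had 107 and 48.0, and Hat1/Rpn5 had 87.0 and 39.5, each with none in replicate 2. Ide/RhoBTB had 90.4 in the pooled list and 45.6 in replicate 2, with none in replicate 3. CG10747/Pyroxd1, Pih1D1/MRP and Ide/RhoBTB each had a second member summit with a candidate in both replicates. That of Pih1D1/MRP was the stronger of its pair, with 118 in the pooled list, 65.4 in replicate 2 and 48.8 in replicate 3. The second summit of CG10747/Pyroxd1 had 94.3, 88.1 and 38.1, and that of Ide/RhoBTB 64.3, 42.2 and 43.7. With a limit of 250 bp in place of 100 bp, every one of the 408 members had a candidate in both replicates.

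The nearest TSS on each strand gave every member its gene pair. In 402 of 408 members the pair stood head to head, with the minus-strand TSS left of the plus-strand TSS, so that the genes run apart. In the other 6 the first parts of the genes overlap, and CG4741/Adck1, with signal 250.2, was the strongest of these. The 408 summits fell on 384 distinct pairs, since 24 pairs had 2 summits each, and 46 members overlapped another member. The summits of a pair lay a median of 206 bp apart, with a range of 199 to 2359 bp. The widest was Elp6/Dic1, whose summits lay at different annotated TSSs of these genes. Members that share a pair are counted separately here but share their genes. A pair of genes lay near 390 of the summits and more genes near 18. The most crowded summit, with signal 128, had 10 genes, all units of pre-mod(mdg4), a locus whose transcripts are joined by trans-splicing in the fly. PIG-M/NC2alpha had 5 genes near its summit at a signal of 168, and CG31650/CG33995 had 4 at 73.9. In all, 796 of 13945 protein-coding genes (5.71%) had a TSS within 500 bp of a member summit. Symbols made of CG and a number, which mark genes without a given name, were 29.3% of these genes, against 43.7% of all protein-coding genes.

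The paired TSSs of the 402 head-to-head members were a median of 275 bp apart, with quartiles of 204 and 363 bp and a range of 6 to 783 bp. The summit lay between them in 333 (82.8%, 78.8 to 86.2%), beyond the TSS of the minus-strand gene in 38 and beyond that of the plus-strand gene in 31. Outside summits were a median of 44 bp past the TSS. The nearer TSS was a median of 61 bp from the summit and the farther one 203 bp, and the rule limits both to 500 bp. At one-strand promoter peaks the nearest TSS was a median of 152.5 bp from the summit, which lay upstream of it in 80.6%. The members' nearer TSS is the closer of those on both strands, so the 61 and 152.5 bp are not like measures. The regions of all 3 kinds had the same median width, 464 bp, and in 216 of the 402 head-to-head members (53.7%) the region held both paired TSSs.

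Within the pair the summit had no fixed place. It lay at most 50 bp from the midpoint in 159 of 402 head-to-head members (39.6%) and at most 100 bp in 263 (65.4%), with a median of 69.8 bp. For the 333 summits between the TSSs, the nearer TSS was a median of 25.3% of the distance between the pair away. Art3/mRpS10, with its summit 128 bp from one TSS and 129 bp from the other, stands for the centred kind. RpS27/Nup37, with 4 bp and 140 bp, stands for the kind beside 1 gene, and mRpS23/CenG1A, with 389 bp and 103 bp, lay nearer CenG1A. The plus-strand gene was the nearer in 226 members and the minus-strand gene in 176.

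**Figure D3:**
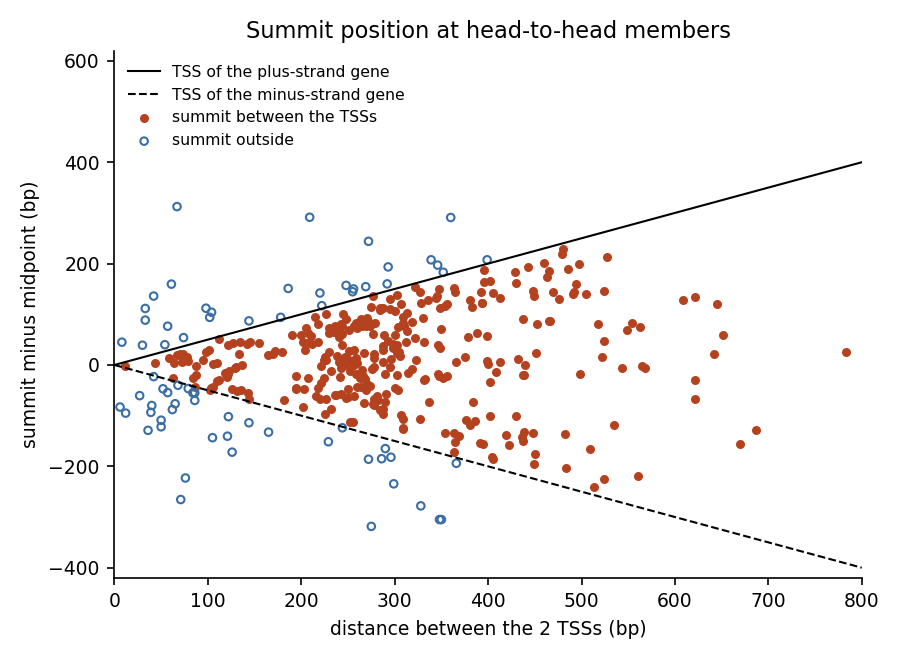
Summit position at the 402 head-to-head members, with the distance between the paired TSSs (bp) on the horizontal axis and the summit minus the midpoint of the pair (bp, positive toward the plus-strand gene) on the vertical axis. Lines mark the TSSs, with 333 summits (filled) between them and 69 (open) outside. At distances over 400 bp none lies outside, where the rule for members leaves little or no room for one.

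The share of summits between the TSSs varied with their distance. It was 35.4% of the 48 members with TSSs at most 100 bp apart, 77.6% of 49 from 101 to 200 bp, 87.8% of 147 from 201 to 300 bp and 89.3% of 84 from 301 to 400 bp. All 47 from 401 to 500 bp and all 27 above 500 bp had it between. The rule fixes this above 500 bp, since a summit outside such a pair lies over 500 bp from the farther TSS. From 401 to 500 bp it leaves little room outside, so nothing is read from either value. In the closest pairs the nearer TSS was a median of 29 bp from the summit, about the distance between the summits of the replicates, so the side of a TSS on which such a summit falls is not well resolved. Above 500 bp it was a median of 203 bp away. The median signal was 91.4 in the members at most 100 bp apart and 81.8 in those above 500 bp, with quartiles of all members at 67.6 and 118.

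Annotated head-to-head pairs of protein-coding genes with TSSs at most 1000 bp apart numbered 2667, and 420 of them (15.7%) had an IDR summit within 500 bp of both TSSs. By distance between the TSSs the share was 15.6% up to 100 bp, 16.5% from 101 to 200 bp, 26.9% from 201 to 300 bp, 22.5% from 301 to 400 bp, 14.6% from 401 to 500 bp and 2.83% above. Pairs 201 to 300 bp apart thus had the highest share, with an interval of 23.4 to 30.8%. The farther apart the TSSs, the less room the rule leaves for a summit near both. Nothing is therefore read from the fall in share above 300 bp.

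**Figure D4:**
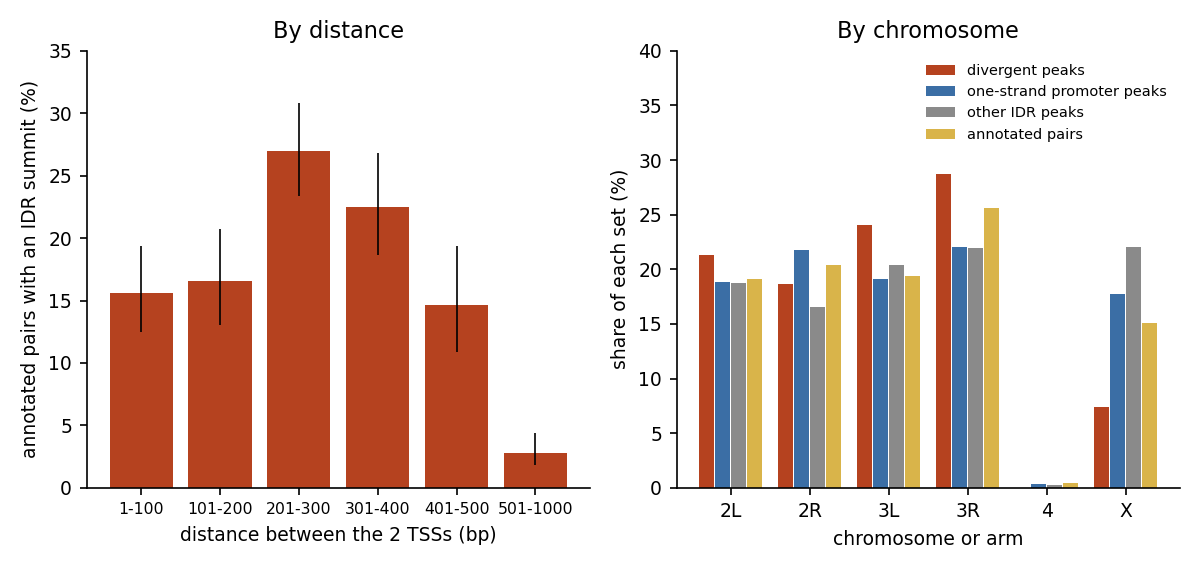
Left, percentage of annotated head-to-head gene pairs with an IDR summit within 500 bp of both TSSs, by the distance between the TSSs, with 95% Wilson intervals; the share peaks at 26.9% for 201 to 300 bp. Right, percentage of divergent promoter peaks, one-strand promoter peaks, other IDR peaks and annotated pairs on each chromosome or arm; on X these are 7.35, 17.7, 22.0 and 15.1%.

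Members were sparse on the X chromosome, which held 30 of 408 (7.35%, 5.20 to 10.3%). It held 17.7% of the one-strand promoter peaks, 22.0% of the other IDR peaks and 15.1% of the annotated head-to-head pairs. Among the 2177 strongest candidates of a replicate, X held 6.84% of the divergent promoter regions of replicate 2 and 8.02% of those of replicate 3, against 18.8% and 17.1% of the one-strand promoter regions. Of the annotated pairs on X, 7.69% had an IDR summit, against 14.2 to 19.0% on the 4 large autosomal arms. The strongest X members were Stt3A/bves, with signal 246 in the pooled list, 120.0 in replicate 2 and 123 in replicate 3, and ND-ASHI/Fum1, with 201, 95.8 and 105. Chromosome 4 had no member, which allows a share of up to 0.735% of the 408, and it holds 0.412% of the annotated pairs.

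Short sequence matches were searched on both strands, whole within 100 bp of each summit, in windows of 201 bp. The DRE, TATCGATA, was found at 43 of 408 members (10.5%, 7.92 to 13.9%), against 5.36% (3.99 to 7.16%) of one-strand promoter peaks, 0.305% of the other IDR peaks and 7.03% of all 13945 protein-coding promoters, whose windows were centred 100 bp upstream of the TSS. In the replicates' own strongest regions the share was 10.9% in replicate 2 and 10.3% in replicate 3 for divergent promoter regions, against 5.08% and 4.99% for one-strand ones. The strongest members with a DRE in the window were Fbw5/CG9147, with signal 354, Atat/Shc, with 264, and RpL28/eIF1, with 169. CGATA, the BEAF-32 core that every DRE contains on both strands, was found at 44.9% of members, 32.0% of one-strand promoter peaks, 20.3% of the other peaks and 38.2% of all promoters. GGTCACACT, the motif 1 site of M1BP, was found at 17 members (4.17%), against 3.06%, 0.102% and 2.70% in the same order, and Ripalpha/RpL7, with signal 326, was the strongest of them. No member had both a DRE and a motif 1 match, and 60 had one of them. The median signal was 80.5 at the 43 with a DRE and 84.9 at those without.

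The E-box CAGCTG, a sequence that basic helix-loop-helix factors can bind, was found at 21.3% of members (17.6 to 25.6%), against 12.2% (10.1 to 14.7%) of one-strand promoter peaks, 6.90% of the other peaks and 11.7% of all promoters. The divergent promoter regions of replicate 2 had it in 19.5% and those of replicate 3 in 20.8%, against 11.9% of the one-strand regions in either replicate. It is the capital stretch beside the RpS27 edge in the sequence of RpS27/Nup37. GAGAGAG, a site of the GAGA factor, went the other way, at 1.47% of members (0.676 to 3.17%), 9.31% (7.47 to 11.5%) of one-strand promoter peaks, 4.16% of the other peaks and 4.99% of all promoters. The initiator core TCAGTT was at 9.07% of members, against 14.4% of one-strand promoter peaks, 13.3% of the other peaks and 15.3% of all promoters. The windows of all promoters end at the TSS, so a match that spans the TSS is not counted in the 15.3%. The TATA box TATAAA was at 35.8% of members (31.3 to 40.5%), against 26.9% of one-strand promoter peaks, 31.8% of the other peaks and 36.5% of all promoters, so the members' interval held the share of all promoters. The homeodomain core TAATTA was at 18.4% of members (14.9 to 22.4%), against 11.6%, 14.6% and 15.2% in the same order, and its interval too held the share of all promoters. CTCF (AGGTGGCGC) was at 0.490% of members, against 0.383%, 1.42% and 0.215%, and Zelda (CAGGTAG) at 1.23%, against 0.638%, 1.62% and 1.20%. GC content averaged 37.4% in the members' windows and 39.7% at one-strand promoter peaks, and the nearest TSS was a median of 61 bp from the summit at head-to-head members and 152.5 bp at one-strand promoter peaks. The part of either in these shares was not tested.

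**Figure D5:**
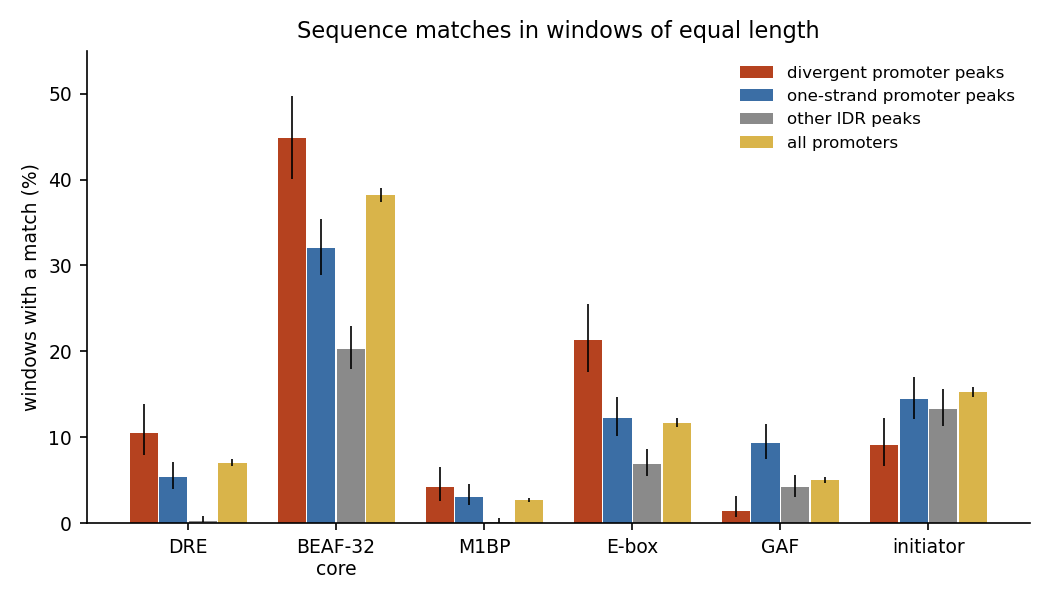
Percentage of 201 bp windows with a sequence match at divergent promoter peaks (n = 408), one-strand promoter peaks (n = 784), other IDR peaks (n = 985) and all protein-coding promoters (n = 13945), with 95% Wilson intervals. DRE, BEAF-32 core and E-box matches were most frequent at divergent promoter peaks, at 10.5, 44.9 and 21.3%, and GAF matches least frequent there, at 1.47%.

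Against divergent gene pairs without an IDR summit, measured around the midpoint of the pair, most of these shares lay closer together. Members that share a pair count separately, so a midpoint window can enter more than once, while a pair without a summit enters once. The members' intervals do not allow for this. The DRE was in 8.58% of members' midpoint windows and 8.54% of those of the 2247 pairs without a summit, and the E-box in 15.2% and 12.3%. GAGAGAG was in 2.45% of members (1.34 to 4.45%), against 2.40% of pairs without a summit, so its low share was not particular to the members. The BEAF-32 core was in 39.7% of members (35.1 to 44.5%), against 41.7% of pairs without a summit, and the homeodomain core in 25.2% (21.3 to 29.7%), against 21.4%, both with the second share inside the members' interval. Motif 1 was in 2.21% of members (1.16 to 4.14%), against 4.72%, and the initiator core in 8.58% (6.23 to 11.7%), against 15.1%, with the second share above the members' interval for both. With both sets limited to TSSs at most 500 bp apart, a limit chosen after seeing the data, the DRE was in 9.33% of 375 members and 11.5% of 1594 pairs without a summit, and the E-box in 15.2% and 14.9%. Under that limit motif 1 was in 2.40% of members, against 6.46% of pairs without a summit, the BEAF-32 core in 41.6% against 48.4%, and the initiator core in 8.27% against 15.4%. For these 3 the Wilson intervals of members, 1.27 to 4.50%, 36.7 to 46.6% and 5.88 to 11.5%, lay below the shares of pairs without a summit. The sets were not matched for TSS distance, which decides whether the TSSs fall inside a midpoint window. Of annotated pairs with TSSs at most 100 bp apart, 15.6% had a summit. The share was 26.9% over 200 and up to 300 bp, and 14.6 to 22.5% at other distances up to 500 bp. The part of TSS distance in the midpoint shares, with or without the limit, was not tested. The homeodomain core was in 25.1% of members (20.9 to 29.7%), against 19.8%. GAGAGAG was in 1.60% of members, against 2.57%, a share inside the members' interval. For the BEAF-32 and homeodomain cores the separation was thus present with this limit and not without it. Around the midpoints, then, pairs with and without a summit had DRE and E-box shares within the members' intervals of 6.79 to 12.7% and 11.9 to 19.2%.

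The octamer ATGCGGGT and its variants ATACGGGT, ATGCGGGC and ATACGGGC, which Gcm proteins are known to bind, were nearly absent. One of these 4 was within 100 bp of the summit in 2 of 408 members (0.490%, 0.135 to 1.77%), against 1.02% of one-strand promoter peaks, 0.711% of the other peaks and 0.667% of all promoters, so the shares could not be told apart at these counts. In both members the match was ATGCGGGC. One was CG31224/CstF64, the second of which encodes a cleavage stimulation factor subunit, with signal 95.8 in the pooled list, 31.7 in replicate 2 and 61.7 in replicate 3. The other was mRpL20/Icmt, with 94.1, 42.0 and 48.3. No match says only that these letters are not in these windows. The gcm2 and gcm genes themselves were not among the members' genes. The strongest pooled candidate within 500 bp of a gcm2 TSS had signal 47.3 at rank 3176, and that of gcm 23.0 at rank 12080, both below the IDR list, and neither gene stands in an annotated head-to-head pair.

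The members' genes were described by 20 lists drawn up from gene symbols. At least 1 list held 118 of the 796 genes (14.8%), against 7.40% of all protein-coding genes, and no member had both of its genes on the same list. Cytosolic ribosomal protein genes, which encode the protein part of the ribosome, were the most frequent, with 25 of 88 at members (28.4%), against 5.71% of all protein-coding genes. One-strand promoter peaks held 29 of the same 88 (33.0%), against 731 of all 13945 protein-coding genes (5.24%). The count at members was 12 with TSSs within 250 bp and 38 within 1000 bp, while the strongest candidates of either replicate gave 27 in replicate 2 and 25 in replicate 3. The strongest members were Ripalpha/RpL7, with signal 326 in the pooled list, 155 in replicate 2 and 172 in replicate 3, and RpS27/Nup37, with 317, 173 and 139. Nelf-E/RpL14 had 193, 104 and 89.0, and RpL34b/CG8132 had 181, 88.8 and 89.4. All 4 were well above the member medians in both replicates, from which nothing is read, since they were picked by the pooled signal. Of 29 member summits with a cytosolic ribosomal protein gene in the pair, 23 (79.3%) lay nearer the TSS of that gene than that of its partner, and their median signal was 121, against 84.4 for all members. That count was made after the pairs were seen.

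Genes of the mitochondrial ribosome were at members in 13 of 75 cases (17.3%), and at one-strand promoter peaks in 2 (2.67%). Of all protein-coding genes, 5.71% were at members and 5.24% at one-strand promoter peaks. After mRpS23, mRpS10 and mRpL23, the next was mRpL24/betaggt-I, with signal 108 in the pooled list, 56.6 in replicate 2 and 52.5 in replicate 3. In 4 of the 13 the ribosomal gene was the nearer of the pair. Aminoacyl-tRNA synthetases, which charge tRNAs with amino acids, had 7 of 33 at members and none at one-strand promoter peaks. The strongest were GluProRS/AP-1sigma, with 108, 59.8 and 48.2, and AsnRS/DCTN6-p27, with 85.6, 46.7 and 37.6. SerRS/CG17260 had 85.4 in the pooled list and 46.1 in replicate 2 but 8.43 in replicate 3. Translation factors had 7 of 59 at members and 9 at one-strand promoter peaks, with RpL28/eIF1 the strongest at 169, 92.5 and 80.9, a member that also has a ribosomal protein gene. With TSSs within 250 bp the counts were 8 for mitochondrial ribosomal genes, 3 for synthetases and 4 for translation factors. In annotated head-to-head pairs, 15.7% of the 5052 genes were at a member. The same share was 47.2% of 53 cytosolic ribosomal protein genes, 22.0% of 59 mitochondrial ones, 30.4% of 23 synthetases and 25% of 28 translation factors.

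Lists of other basic cell functions had from 1 to 13 genes at members. The leader named for a list is its strongest listed gene, and the symbol patterns left out some genes of like role. For instance, neither Ssl1, of TFIIH, at 618 nor CHMP2B, of endosomal sorting, at 427 was on a list. Vesicle trafficking had 13 of 109 listed genes at members, led by Fur1/Vps33B with 329. Members were at 10 of 85 listed genes of RNA polymerases, general transcription factors and Mediator, led by MED30/Rev1 with signal 161. They were at 7 of 89 respiratory chain genes, led by ND-ASHI/Fum1, at 5 of 48 proteasome genes, led by Hat1/Rpn5, and at 8 of 74 ubiquitin and autophagy genes, led by rumi/Usp12-46 with 103. DNA replication had 5 of 40, led by dup/SRPK with 128, DNA repair 5 of 36, led by Rad60/EloA with 108, and the cell cycle 4 of 52, led by orb/Cdc16 with 83.9. Splicing had 2 of 36, which were U2af50/PIG-Q at 75 and snRNP-U1-C/gukh at 69.7. Chromatin regulators had 4 of 60, led by Ino80/Aptx at 141 and brm/Arl1 at 133, and heat shock and chaperone genes 1 of 42, tefu/Hsc70-4 at 79.5. In annotated pairs these lists had from 4.55 to 19.2% of their genes at members, around the 15.7% of all paired genes.

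Of 18 genes for insulator and promoter factors, 3 were at members (16.7%), against 5.71% of all protein-coding genes. Among those in an annotated head-to-head pair it was 3 of 8 (37.5%), against 15.7% of all paired genes, from few genes. They were Chro, Dref, the gene of the DRE-binding protein itself, and Cp190, which encodes a cofactor of insulator proteins. Dref stands head to head with the ribosomal protein gene RpL13, 84 bp apart, and that summit had signal 128 in the pooled list, 58.6 in replicate 2 and 74.1 in replicate 3. Cp190/CG4338 had 89.3, 47.7 and 42.4, so both were much weaker than Chro/Ssl1. In all 3 the listed gene had the nearer TSS. The 2177 strongest candidates of either replicate also held 3 of these genes at divergent promoters.

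No gene on the lists of the Gcm pathway (6 genes, among them repo, pnt, loco and ttk), glia (31), hemocytes, the fly's blood cells (24), or neuroblasts and neurons (33) was at a member. A count of 0 allows up to 50% of the Gcm pathway list, which is too short to say more, 9.68% of the glial, 12.5% of the hemocyte and 9.09% of the neural list. Few of these genes could have been members, since 1, 4, 4 and 2 of them stand in an annotated head-to-head pair. One-strand promoter peaks held 3 glial and 3 neural genes (9.68% and 9.09% of those lists), against 5.24% of all protein-coding genes. The lists hold genes that differ between cell types, and the cell types in which the members were occupied cannot be told from whole embryos.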

How the data were processed

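Sonication gave fragments of 200 to 800 bp, per the labels. Per the deposited file lists, the authors derived a candidate list of 30000 regions from each replicate and from both pooled, with a control file, and the IDR list from these. The sources used here name no aligner, peak caller or threshold. The signal of a region (column 7) is the authors' deposited value, and the summit offset is theirs too. Read depth is unknown, so intervals and floors cover counting error only; a floor is 3 counts of the total. Coordinates are 1-based dm6, and the dm3 lists were not used.

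Summits were joined to protein-coding TSSs of Ensembl 115 and to Release 6 sequence, with Python 3.11.15, pandas 2.3.3, numpy 2.4.6 and scipy 1.17.1, in scripts checked on simulated data. Gene roles follow RefSeq product names or textbook knowledge. With 1 group, no test was run. Shares carry Wilson intervals over regions, which do not measure variation between embryos, and the 2177 strongest candidates of either replicate gave the spread between the replicates. Members and lists were chosen with earlier results of these data known. Lists were drawn up by symbol pattern and so may miss or misplace genes. Named were the 15 strongest and 3 weakest members (1 weak member is not reported here), up to 4 members a list by signal, members with a Gcm octamer, the 5 strongest without a candidate in a replicate, regions with more than 2 genes, and gcm2 and gcm. Alternatives changed the TSS distance, TSS set, shared distance, motif window, signal threshold and replicate.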

Additional observations from a re-analysis of the deposited data

How the results depend on the processing

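The share of IDR peaks at divergent promoters was 12.1% with TSSs within 250 bp, 23.9% within 1000 bp, 16.2% with 1 TSS per gene and 21.4% with any base of the region within 500 bp. The share of members with a candidate in both replicates was 75% within 50 bp, 100% within 250 bp, 63.0% with each replicate's strongest regions alone and 96.8% among the 1088 strongest IDR peaks; it was 88.5 to 88.6% when the regions came from 1 replicate's own list. The DRE share was 5.39% within 50 bp of the summit. The motif 1 share was 1.96% within 50 bp, 7.11% within 150 bp and 2.21% around the midpoint. Annotated pairs with a summit were 20% for TSSs at most 500 bp apart and 9.11% with those 1088 peaks, and listed genes at members were 78 within 250 bp and 66 with those peaks, since each takes fewer regions or pairs. The other 34 settings of the main measures moved a share by less than its interval. They moved a count, the median TSS distance or the ratio of median signals by under 1.5 times. Of the single sequences and gene lists, 44 of 178 settings moved by more. For the moves not set by fewer regions or pairs, the cause was not tested. No paired analysis was possible because all samples belong to 1 group. Depth is unknown, and regions listed per replicate include background, so a candidate in a replicate is not by itself evidence of binding there.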
